A study of Mus musculus with 12 samples.

Results

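The 9 genes described here belong to heme synthesis and to hemoglobin, and they were measured in the liver RNA of mice that had or had not trained on a treadmill. They were chosen by gene symbol and are 9 of the 16821 genes listed per mouse. Of 12 male C57BL/6J mice, 6 ran at moderate intensity for 60 min a day on 5 days of each week over 6 weeks (chronic exercise, Exe), and 6 were kept in the same room without running (control, Con). The mice were bought at an age of 8 weeks. All livers were rinsed with saline through the vessels until they turned white and were taken within 24 h of the last run, and each mouse gave 1 library. Values are FPKM, fragments scaled to transcript length and to the mapped fragments of the library, so levels of different genes can be set side by side per length. All 9 members passed the filter of at least 1 FPKM in at least 6 of the 12 mice, which left 10241 genes for testing.

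Heme is made from glycine and succinyl-CoA along a pathway that starts and ends in the mitochondrion and runs through the cytosol in between. Its first step is carried out by ALAS1 in most cells, where it sets the rate and is repressed by heme, and by the X-linked isoenzyme ALAS2 in the precursors of red blood cells. Hepatocytes use most of their heme for cytochromes P450, whereas red cell precursors put it into hemoglobin, whose alpha and beta chains stay on as mRNA in reticulocytes after the nucleus is lost.

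The tissue label was checked first. Markers of hepatocytes were high in every mouse, and the mean over the mice was 39374 FPKM for Alb (albumin), 11744 FPKM for Apoa1 and 8422 FPKM for Ttr. The 10 hepatocyte markers summed to between 57612 and 75440.5 FPKM in Con and between 65813.2 and 81623.4 FPKM in Exe. The total over all genes was 735200 to 820107 FPKM per mouse. The depth in reads is unknown, and the relative depth, read from the steps between the values of 45 low genes, lay between 0.988 and 1.01 (largest standard error 0.0109). Only genes whose steps nearly agreed across the mice were used, so a larger difference in depth could have been missed.

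The sequence just before the start site is shown for the alpha globin and both beta globin genes and for the pair of first-step enzymes. Each run holds the 250 bases upstream of the start, 5′ to 3′ on the gene's strand, from RefSeq on GRCm38.p6, which is an older build than the GRCm39 of the authors' alignment. Capitals mark 4 short motifs known from globin promoters, which are the TATA box (TATAA), the CCAAT box (CCAAT), the box bound by KLF factors (CACCC) and the box bound by GATA factors (GATAA). They were searched on both strands, and neighbouring matches can touch or overlap. Hba-a1 is at chr11:32283422-32283671 (plus strand), Hbb-bs at chr7:103827929-103828178 (minus strand), Hbb-bt at chr7:103813924-103814173 (minus strand), Alas2 at chrX:150547167-150547416 (plus strand) and Alas1 at chr9:106247955-106248204 (minus strand, the more upstream of 2 listed starts).
Hba-a1: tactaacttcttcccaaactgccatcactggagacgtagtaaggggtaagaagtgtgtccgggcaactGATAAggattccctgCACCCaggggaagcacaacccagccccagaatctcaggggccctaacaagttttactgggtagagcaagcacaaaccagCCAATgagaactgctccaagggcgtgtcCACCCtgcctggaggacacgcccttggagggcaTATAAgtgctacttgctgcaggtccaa
Hbb-bs: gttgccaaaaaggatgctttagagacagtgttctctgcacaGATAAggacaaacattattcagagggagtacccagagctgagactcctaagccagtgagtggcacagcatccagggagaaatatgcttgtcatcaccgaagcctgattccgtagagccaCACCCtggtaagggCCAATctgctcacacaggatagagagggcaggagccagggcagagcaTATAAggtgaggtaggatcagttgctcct
Hbb-bt: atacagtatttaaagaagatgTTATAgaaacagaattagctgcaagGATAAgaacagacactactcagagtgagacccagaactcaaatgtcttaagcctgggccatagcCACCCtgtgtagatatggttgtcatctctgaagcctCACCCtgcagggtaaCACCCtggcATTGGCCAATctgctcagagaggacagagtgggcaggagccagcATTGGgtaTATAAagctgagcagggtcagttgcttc
Alas2: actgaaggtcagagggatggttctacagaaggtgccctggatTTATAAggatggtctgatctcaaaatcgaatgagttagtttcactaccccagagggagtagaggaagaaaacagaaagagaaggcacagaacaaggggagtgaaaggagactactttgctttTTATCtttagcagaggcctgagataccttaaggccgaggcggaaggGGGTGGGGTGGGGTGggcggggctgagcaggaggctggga
Alas1: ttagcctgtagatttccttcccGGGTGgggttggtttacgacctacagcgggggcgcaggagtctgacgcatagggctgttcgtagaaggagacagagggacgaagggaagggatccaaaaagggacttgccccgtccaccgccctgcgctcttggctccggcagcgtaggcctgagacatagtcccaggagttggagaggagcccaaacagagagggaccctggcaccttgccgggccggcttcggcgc

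In the 3 globin windows TATAA lay close to the start, with its first base at -27 in Hba-a1, -29 in Hbb-bs and -28 in Hbb-bt, and each of these windows also held the other 3 motifs. The Alas2 window held 3 matches to CACCC between -40 and -26 and 1 to GATAA at -86, and its TATAA letters lay far from the start, at -207. In the Alas1 window the search found 1 CACCC and no match to the other motifs. Such matches are common. Of 32851 mouse windows of the same length, 22.8% held TATAA, 33.8% CCAAT, 52.0% CACCC and 22.6% GATAA. Among the remaining enzymes, the window of Alad held 2 matches to CCAAT, that of Urod 1 match to CCAAT, and that of Cpox 4 to CACCC and 1 to GATAA.

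The highest mean levels among the members were those of Hba-a1 and Hbb-bs, although the livers had been perfused. Averaged over the 12 mice, FPKM was 213 for Hba-a1 (rank 432 of 16821 genes), 170 for Hbb-bs, 137 for Alas1, 101 for Alad, 61.8 for Urod, 57.7 for Alas2, 52.6 for Fech, 43.7 for Hbb-bt and 42.0 for Cpox. Not all neighbours in this order were separated mouse by mouse. Hba-a1 exceeded Hbb-bs, and Alad exceeded Urod, in 12 of 12 mice. By contrast, Hbb-bs exceeded Alas1 in 6 of the 12, Alas1 exceeded Alad in 6, Urod exceeded Alas2 in 7, and Hbb-bt exceeded Cpox in 5. Alas2 was above Fech in 10 mice and Fech above Hbb-bt in 8.

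**Figure D1:**
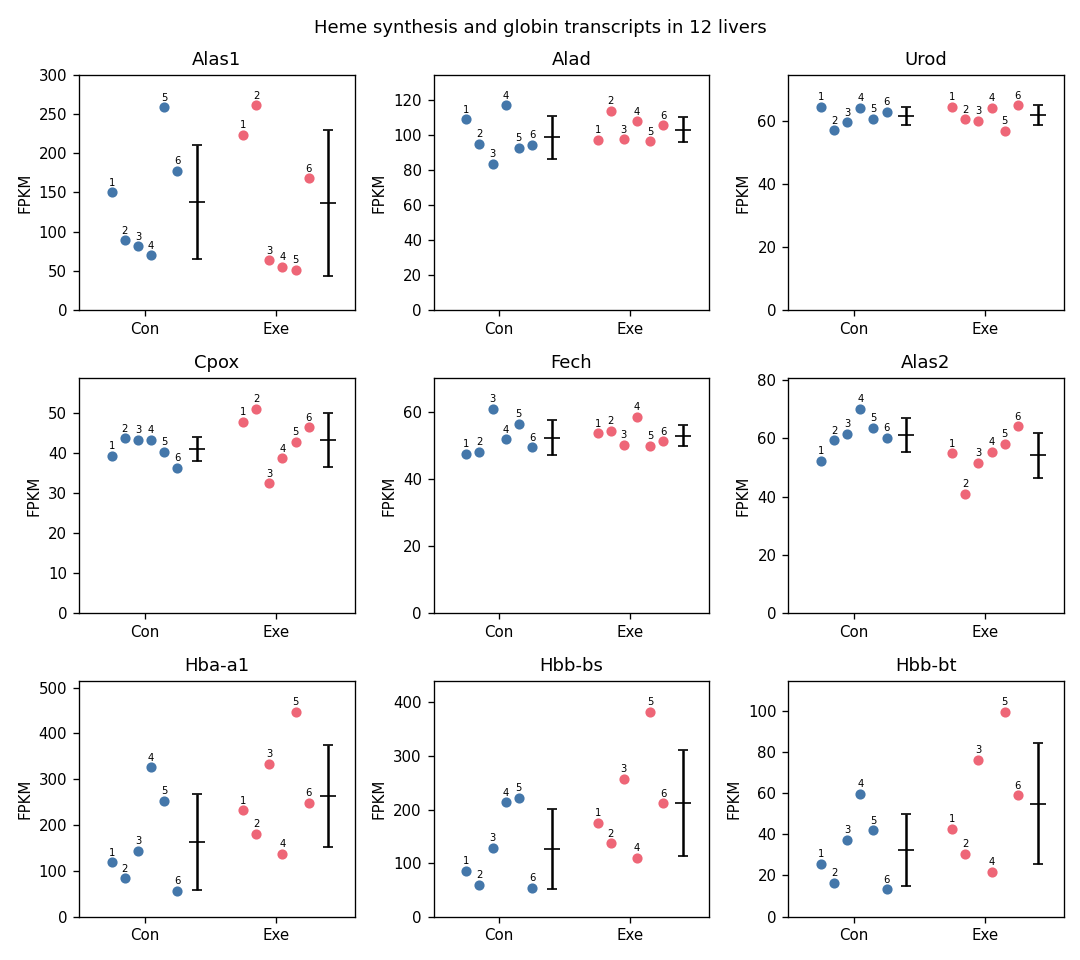
FPKM (vertical axes, from 0) of the 9 members in each liver, with Con mice in blue and Exe mice in red, numbered as in the text; bars are the group mean and its SD (n = 6). The globins and Alas1 spread 5.10-fold or more from the lowest to the highest mouse, and the other 5 genes by at most 1.71-fold.

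None of the members passed the test between the groups. With limma and Benjamini-Hochberg adjustment over all tested genes, 0 of the 9 members had an adjusted p below 0.05, as did 0% of the 10241 genes. At an unadjusted p of 0.05 the count was 1 of 9, Hbb-bs, which was higher in Exe. The share of all tested genes at that unadjusted threshold was 6.21% (4.27% higher and 1.94% lower in Exe). The Con and Exe values overlapped for each of the 9 members, and 0.254% of the tested genes had groups that did not overlap.

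Hba-a1 encodes the alpha chain of adult hemoglobin. Its level in Con was 56.7 FPKM in the lowest mouse, 131 at the median and 326 in the highest, and in Exe it was 136, 240 and 447 FPKM. Con 6 was the lowest of all mice and Exe 5 the highest, 2 Exe mice lay above the highest Con mouse, and the remaining Exe mice lay within the Con range. The group mean was 164 ± 105 FPKM in Con and 263 ± 112 FPKM in Exe (SD). On the scale of log2(FPKM + 1) the difference was 0.83 with a standard error of 0.395 (limma adjusted p = 0.809), and an exact two-sided permutation test over the mice gave p = 0.106.

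Hbb-bs, the more abundant of the adult beta globin genes in these livers, was measured at 53.9, 107 and 221 FPKM in the lowest, median and highest Con mouse, and at 110.0, 193 and 382 FPKM in Exe. Again Con 6 was lowest and Exe 5 highest, and the groups overlapped. The log2 difference was 0.83 with a standard error of 0.383 (limma unadjusted p = 0.0481, adjusted p = 0.799), and the exact permutation p was 0.0931. The unadjusted p ran from 0.0158 to 0.115 over the 18 alternatives and was below 0.05 in 7 of them, so this call rests on single mice and settings (0.115 without Con 6, 0.112 without Exe 5).

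Hbb-bt is the other adult beta globin gene of this strain. Its FPKM was 13.2, 31.5 and 59.8 in the lowest, median and highest Con mouse and 21.8, 50.8 and 99.7 in Exe. The same mice stood at either end, and 2 Exe mice lay above all Con mice. The log2 difference was 0.75 with a standard error of 0.401 (limma adjusted p = 0.848; exact permutation p = 0.145). In bulk liver RNA, more red cells left in the vessels and more globin mRNA per red cell cannot be told apart.

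**Figure D2:**
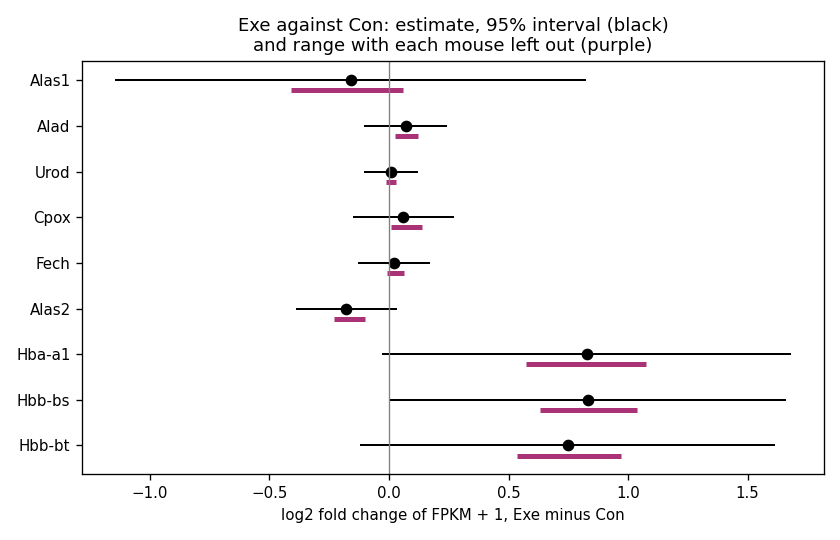
Difference between Exe and Con on the log2(FPKM + 1) scale (horizontal axis) for each member, with the limma estimate as a point, its 95% interval in black and the range of estimates with each mouse left out in purple. The estimates of the globins lie between 0.75 and 0.83 with wide intervals, and those of Alad, Urod, Cpox and Fech lie within 0.07 of 0.

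The globin estimates moved with single mice but kept their sign. Leaving out 1 mouse at a time, the log2 difference of Hba-a1 ran from 0.57, without Con 6, to 1.07, without Con 4. The range was 0.63 to 1.04 for Hbb-bs and 0.54 to 0.97 for Hbb-bt, both lowest without Con 6. Within groups the globins were among the most variable genes measured. The SD of log2(FPKM + 1) within groups was 0.794 for Hba-a1, 0.770 for Hbb-bs and 0.806 for Hbb-bt, against a median of 0.140 over the tested genes, and at least 99.3% of those genes varied less than each of the 3.

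Across mice the globin transcripts rose and fell together. Over the 12 mice, log2(FPKM + 1) of Hbb-bs followed that of Hba-a1 with Pearson's r = 0.984 (100000 permutations, p = 1e-05, the smallest they can give; Spearman's rho = 0.993, permutation p = 1e-05). Without Con 2 and Con 6, the mice farthest from the median Hba-a1 level, r was 0.976. Within Con r was 0.975 (exact p = 0.00278) and within Exe 0.993 (exact p = 0.00139). Hbb-bt gave r = 0.965 (permutation p = 1e-05; rho = 0.965, permutation p = 2e-05), 0.937 without the same mice, 0.974 within Con and 0.986 within Exe. Adjusted over the 8 relations of members to Hba-a1, Pearson's permutation p was 4e-05 for each of these beta globins and Spearman's was 8e-05. The genes share a library in each mouse, so the points carry a common depth.

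The proportions among the globins stayed within narrow bounds while their levels ranged over 7-fold. From Con 6 to Exe 5, FPKM rose 7.89-fold for Hba-a1, 7.10-fold for Hbb-bs and 7.57-fold for Hbb-bt. The ratio of Hbb-bt to Hbb-bs was 0.263 ± 0.0405 in Con and 0.250 ± 0.0363 in Exe (SD over the mice), from 0.190 to 0.299 in single mice. That of Hba-a1 to Hbb-bs was 1.27 ± 0.190 in Con and 1.25 ± 0.0698 in Exe, from 1.05 to 1.53. On the log2 scale the groups differed by -0.07 in the first ratio (exact permutation p = 0.600) and by -0.01 in the second (exact permutation p = 0.931).

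**Figure D3:**
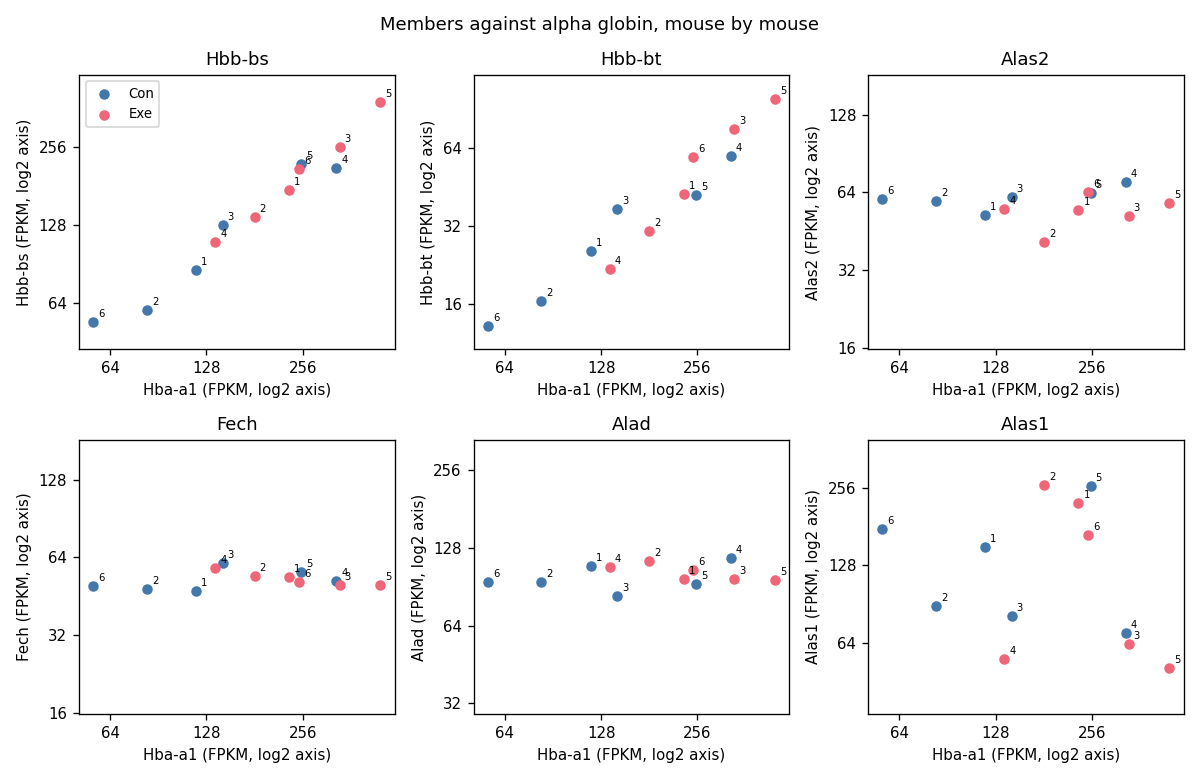
FPKM of 6 members (vertical axes, log2) against Hba-a1 in the same liver (horizontal axes, log2), with Con in blue and Exe in red and mouse numbers beside the points. Hbb-bs and Hbb-bt climb with Hba-a1 (r = 0.984 and 0.965), whereas Alas2, Fech and Alad stay nearly level and Alas1 splits into a high and a low set.

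How reads were shared among near-identical copies bears on these levels. Hba-a1 and its neighbour Hba-a2 matched in 537 of 538 aligned transcript bases (99.8%), in the GENCODE M21 transcripts, and their upstream windows were identical over 247 of 247 aligned bases. Of the 150-base stretches of the Hba-a1 transcript, 48.4% also occurred in Hba-a2. Hbb-bs and Hbb-bt matched in 92.7% of aligned bases and 58.7% of the stretches of Hbb-bs occurred in Hbb-bt. The split between the copies is therefore uncertain. Hba-a2 itself was listed at 50.7, 88.9 and 233 FPKM in the lowest, median and highest Con mouse and at 76.7, 163 and 303 FPKM in Exe, with a log2 difference of 0.66 (limma adjusted p = 0.873). Among the tested genes other than the members it was the one most like Hba-a1 (r = 0.978 over 12 mice), followed by Asnsd1 (0.868), Ormdl2 (0.831), Tsn (0.798) and Zdhhc3 (0.792). The last 4 moved little in level, Asnsd1 for example between 12.2 and 17.2 FPKM.

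Most of the other listed red cell markers were at low levels. Of 24 listed red blood cell and reticulocyte markers 18 were in the files, and 14 of these stayed below 1 FPKM in every mouse. Epb42, a protein of the red cell membrane skeleton, reached 0.02 FPKM at most, and Hemgn, a nuclear protein of red cell precursors, 0.03. Ahsp, the chaperone of free alpha globin, was listed at 0 in 10 mice and at 0.50 in Con 1 and 0.75 in Exe 3. The 4 markers that passed the filter were Hba-a2, Bpgm, Car1 and Isg20, and the means of the latter 3 were 8.22, 5.63 and 2.25 FPKM. Summed, the list ran from 64.0 to 253 FPKM in Con and from 93.3 to 322 FPKM in Exe. Most of this sum was Hba-a2, itself an alpha globin gene. It was at 50.7 FPKM in Con 2, which had the lowest sum, and at 303 FPKM in Exe 5, which had the highest. By limma, 0 of the 4 tested genes passed an adjusted p of 0.05 or an unadjusted one.

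Some of these very low genes still followed Hba-a1. Slc4a1, the anion exchanger of the red cell membrane, was at 0.12 FPKM or less in every mouse, and its r with Hba-a1 was 0.895 (permutation p = 6e-05, adjusted over 10 red cell genes 0.0003; rho = 0.886, permutation p = 0.00024). Without Con 2 and Con 6 it was 0.804, within Con 0.907 (exact p = 0.0111) and within Exe 0.813 (exact p = 0.05). Trim10 gave 0.757 (permutation p = 0.00439, adjusted 0.0110; rho = 0.811, permutation p = 0.0024), 0.781 without the same mice, 0.817 within Con and 0.857 within Exe, on values of at most 0.11 FPKM. For the more abundant markers no relation passed the test. Pearson's r was 0.116 for Car1 (permutation p = 0.720), 0.374 for Bpgm (permutation p = 0.232) and 0.0446 for Isg20 (permutation p = 0.890). These relations were computed after the data had been seen.

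**Figure D4:**
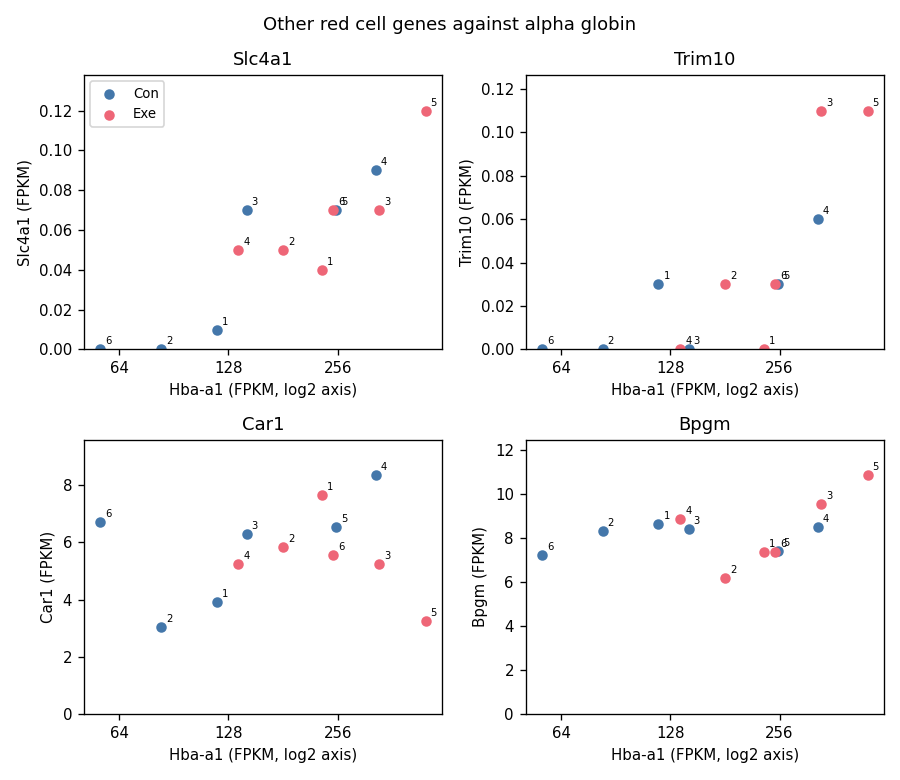
FPKM of 4 red cell genes (vertical axes, from 0) against Hba-a1 (horizontal axes, log2) in each liver, with Con in blue and Exe in red. Slc4a1 and Trim10 are higher in the mice with more Hba-a1 (r = 0.895 and 0.757) at 0.12 FPKM or less, and the points of Car1 and Bpgm show no such order (r = 0.116 and 0.374).

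Alas2, the first-step enzyme of red cell precursors, ranged 1.71-fold over the mice, where the globins ranged 7.10-fold or more. Its level was 52.3, 60.9 and 70.2 FPKM in the lowest, median and highest Con mouse and 41.1, 55.2 and 64.2 FPKM in Exe. Con 4 was highest and Exe 2 lowest, 2 Exe mice lay below the Con range, and the groups overlapped. The means were 61.2 ± 5.85 FPKM in Con and 54.3 ± 7.68 FPKM in Exe (SD), and the log2 difference was -0.18 with a standard error of 0.0956 (limma adjusted p = 0.848; exact permutation p = 0.108). From Con 6 to Exe 5, over which Hba-a1 rose 7.89-fold, Alas2 went from 60.3 to 58.2 FPKM, a ratio of 0.966. Its r with Hba-a1 was 0.0867 (permutation p = 0.791; rho = 0.105, permutation p = 0.748), 0.313 without Con 2 and Con 6, 0.617 within Con (exact p = 0.175) and 0.317 within Exe (exact p = 0.569).

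The ratio of Alas2 to Hba-a1 thus varied from 0.130 in Exe 5 to 1.06 in Con 6. It was 0.518 ± 0.320 in Con and 0.236 ± 0.0973 in Exe (SD), a log2 difference of -1.01 (exact permutation p = 0.0455, and 0.182 after adjustment over the 4 ratios tested). The exons of Alas2 overlap those of Apex2 on the opposite strand over 311 of 2403 bases in GENCODE M21, and Apex2 was at 3.56 to 5.21 FPKM. Whether the counting used strand is not stated, so a share of the reads could not be told apart. Alas1 and Alas2 had no 150-base stretch in common. The transcription factors of red cell precursors were low, with Gata1 at 0.07 FPKM or less and Klf1 at 1.40 to 2.75 FPKM. Zfpm1, a partner of GATA factors, averaged 14.6 FPKM, and Lmo2 2.99. None of the 3 factors tested, Zfpm1, Lmo2 and Klf1, passed the adjusted or the unadjusted threshold (limma).

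Alas1, the rate-setting enzyme of the liver pathway, had the widest spread of the enzymes and no detectable shift between groups. Its FPKM was 69.8, 120 and 259 in the lowest, median and highest Con mouse and 51.1, 116 and 261 in Exe. The mice lay in a low set of 6 (Con 2, Con 3, Con 4, Exe 3, Exe 4 and Exe 5) at 51.1 to 89.0 FPKM and a high set of 6 (Con 1, Con 5, Con 6, Exe 1, Exe 2 and Exe 6) at 150 to 261 FPKM, with 3 Exe mice in each and a 1.69-fold gap between them. The means were 138 ± 72.9 FPKM in Con and 137 ± 93.1 FPKM in Exe (SD), and the log2 difference was -0.16 with a 95% interval from -1.14 to 0.82 (limma adjusted p = 0.975; exact permutation p = 0.738). Its within-group SD of 0.917 exceeded that of 99.6% of the tested genes. With single mice left out the difference ran from -0.41, without Exe 2, to 0.06, without Exe 5. In GENCODE M21 the exons of Alas1 share 465 of 6174 bases with 4930500F10Rik on the opposite strand.

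The level of Alas1 showed no detectable relation to the globins. The highest globin level (Exe 5) and the second lowest (Con 2) both fell in the low set, and r with Hba-a1 was -0.234 (permutation p = 0.460; rho = -0.294, permutation p = 0.354), -0.253 without Con 2 and Con 6, -0.143 within Con and -0.332 within Exe. Because of the gap, relations of other heme genes to Alas1 were taken within each set. The sets were drawn by the level of Alas1 itself, after its values had been seen. Such relations leave out the difference between the sets, which was not tested, so they cannot show that a gene is unrelated to Alas1. Of 88 such relations (44 genes in 2 sets) 6 had an exact p below 0.05 and 0 an adjusted one, the lowest adjusted p being 0.448. By Spearman's rho 3 of the 88 had an exact p below 0.05, and the lowest adjusted p was 0.642. The share of all tested genes at that exact p was not computed, so the 6 relations by Pearson's r are listed as a description. In the high set these were Nr1d2 (r = 0.953, exact p = 0.0139), Fech (r = 0.944, exact p = 0.0125), Nrf1 (0.847, exact p = 0.0153), Ugt1a1 (0.813, exact p = 0.0208) and Fam210b (0.776, exact p = 0.0292), and in the low set Foxo1 (0.845, exact p = 0.0486). In that high set Spearman's rho was 0.886 for both Nr1d2 and Fech and -0.886 for Urod (exact p = 0.0333 for each). The genes other than the members that were most like Alas1 over the 12 mice, as a description across the gap, were Aimp2 (r = 0.925), Nr3c2 (0.921), Asl (0.888), Igfbp4 (0.880) and Esrra (0.875).

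**Figure D5:**
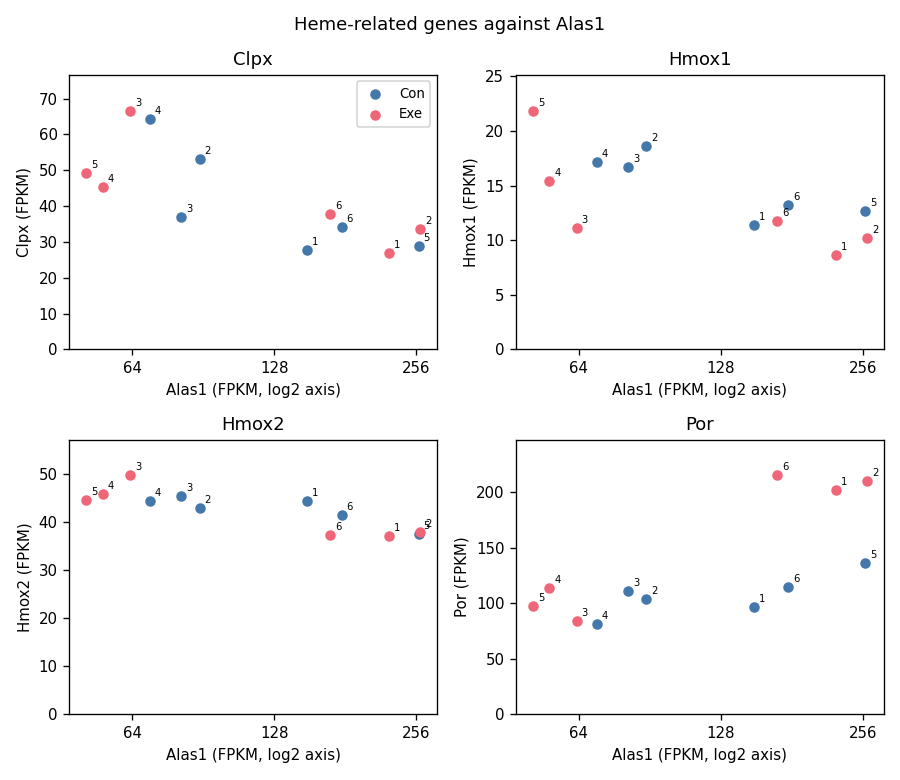
FPKM of 4 heme-related genes (vertical axes, from 0) against Alas1 (horizontal axes, log2) in each liver, with Con in blue and Exe in red. The mice form a set at 51.1 to 89.0 and a set at 150 to 261 FPKM of Alas1, each with 3 Con and 3 Exe mice.

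The genes in that plot act on heme or on ALAS1, and were picked for that role after the values had been seen. Clpx is a subunit of the mitochondrial protease that removes ALAS1, Hmox1 and Hmox2 are the oxygenases that break heme down, and Por passes electrons to them and to cytochromes P450. Within the low set of Alas1 Pearson's r with Alas1 was -0.0995 for Clpx, -0.015 for Hmox1, -0.366 for Hmox2 and 0.105 for Por, and within the high set it was -0.171, -0.31, -0.682 and 0.47. The exact permutation p of each of these 8 relations was 0.167 or more. With 6 mice in a set, a moderate relation was not detectable. Between the sets the ranges of these picked genes were shifted, though they overlapped for each gene. Clpx was at 36.89 to 66.65 FPKM in the low set and 27.04 to 37.85 in the high set. Clpp, the other subunit of that protease, showed no such shift. It was at 35.08 to 49.88 FPKM in the low set and 38.05 to 47.88 in the high set. The ranges, low set first, were 43.07 to 49.78 and 37.14 to 44.35 for Hmox2, and 11.12 to 21.85 and 8.68 to 13.19 for Hmox1. For Por they were 81.38 to 113.48 and 96.22 to 214.9. The shifts between the sets were not tested, and the share of all tested genes with such a shift was not computed.

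The middle and last enzymes of the pathway differed little between the group means, and their spread between mice varied. The within-group SD of log2(FPKM + 1) was 0.140 for Alad, 0.116 for Fech and 0.180 for Cpox, larger than that of 49.9%, 32.0% and 70.2% of the tested genes. Alad, which joins the first intermediates into a pyrrole, was at 83.6, 94.5 and 117 FPKM in the lowest, median and highest Con mouse and at 96.2, 101 and 114 FPKM in Exe. All Exe values lay within the Con range. The log2 difference was 0.07 with a 95% interval from -0.10 to 0.24 (limma adjusted p = 0.937; exact permutation p = 0.411).

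Urod, which removes carboxyl groups from uroporphyrinogen, had the smallest spread of the members. It was at 57.2, 61.9 and 64.6 FPKM in the lowest, median and highest Con mouse and at 56.9, 62.5 and 65.0 FPKM in Exe. Both groups covered almost the same range. The log2 difference was 0.01 with a 95% interval from -0.10 to 0.12 (limma adjusted p = 0.993; exact permutation p = 0.831), and 3.88% of the tested genes had a smaller within-group SD than its 0.0715.

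Cpox, the oxidase that acts after Urod in the space between the mitochondrial membranes, was at 36.2, 41.7 and 43.7 FPKM in the lowest, median and highest Con mouse and at 32.4, 44.5 and 51.0 FPKM in Exe. The Exe mice were more spread, with 3 above the highest and 1 below the lowest Con mouse. The log2 difference was 0.06 with a 95% interval from -0.15 to 0.27 (limma adjusted p = 0.959; exact permutation p = 0.565). Its exons overlap those of Gpr15 on the opposite strand, which was at 0.03 FPKM or less.

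Fech inserts the iron into protoporphyrin as the last step. It was at 47.4, 50.6 and 60.9 FPKM in the lowest, median and highest Con mouse and at 49.9, 52.4 and 58.4 FPKM in Exe. All Exe values lay within the Con range. The log2 difference was 0.02 with a 95% interval from -0.13 to 0.17 (limma adjusted p = 0.980; exact permutation p = 0.771).

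Of the 6 enzymes, Fech was the 1 whose relation to Hba-a1 within a group passed after adjustment. Over all mice r was 0.104 (permutation p = 0.745; rho = 0.196, permutation p = 0.545), and -0.374 without Con 2 and Con 6. Within Exe it fell as Hba-a1 rose, from 58.4 FPKM in Exe 4 to 49.9 FPKM in Exe 5, with r = -0.935 (exact p = 0.00417, adjusted over 16 within-group relations 0.0133) and rho = -1 (exact p = 0.00278). Within Con r was 0.462 (exact p = 0.350), and the difference between the groups was not tested. Of the other tested genes, 0.654% had an r with Hba-a1 as low or lower within Exe. After quantile normalization the value within Exe was -0.716 (exact p = 0.103). Alad, Urod and Cpox gave r of 0.181, -0.0872 and 0.130 over the 12 mice (permutation p = 0.570, 0.786 and 0.690; rho = 0.154, -0.140 and 0.0280) and of -0.0529, -0.419 and -0.0846 without Con 2 and Con 6. Adjusted over the 8 relations, the permutation p of Pearson's r was 0.791 for each of the 6 enzymes.

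Of the other enzymes of the pathway, Uros and Ppox were tested as well, and neither passed the adjusted or the unadjusted threshold (limma). Uros, which closes the ring, was at 8.86, 12.5 and 15.6 FPKM in the lowest, median and highest Con mouse and at 9.62, 10.4 and 12.7 FPKM in Exe, a log2 difference of -0.18 (limma adjusted p = 0.859). Ppox, which oxidises the ring before iron is inserted, was at 12.5, 14.4 and 16.9 FPKM in Con and at 13.3, 14.8 and 15.9 FPKM in Exe, a difference of 0.03 (limma adjusted p = 0.967). The groups overlapped for both.

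Partners, breakdown and scavenging genes gave a like picture, with 0 genes past the adjusted threshold in each list. Of 15 mitochondrial partners 1 passed at an unadjusted p, Tmem14c, which carries protoporphyrinogen into the matrix. It was at 137, 143 and 155 FPKM in the lowest, median and highest Con mouse and at 137, 170 and 192 FPKM in Exe, a log2 difference of 0.20 (limma unadjusted p = 0.0251, adjusted p = 0.793). Exe 4 and Exe 5 lay within the Con range and the other Exe mice above it. The unadjusted p was 0.0561 without Exe 1, 0.0605 without Exe 2 and 0.0577 without Exe 6. Pgrmc1, a heme-binding protein, and Slc25a39, a mitochondrial glutathione carrier, were the most abundant others of the list at means of 707 and 242 FPKM, with log2 differences of -0.01 and 0.06. The list's median was 0.02, equal to that of all tested genes to 2 decimals.

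Of 11 tested breakdown and transport genes 0 passed at an unadjusted p. Por was at 81.4, 108 and 136 FPKM in the lowest, median and highest Con mouse and at 83.9, 157 and 215 FPKM in Exe, with Exe 1, Exe 2 and Exe 6 above the Con range, and its log2 difference was 0.43 (limma adjusted p = 0.849). Those 3 mice were also the Exe mice of the high Alas1 set. The differences of Ugt1a1, which conjugates bilirubin, and Blvrb, a biliverdin reductase, were 0.06 and 0.03. The list's median was -0.03.

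The 7 genes of hemoglobin and heme scavenging had lower Exe estimates, and 1 passed at an unadjusted p. This direction held for 4 of the 7 without Con 2 and for 5 of the 7 without Exe 4, with medians of -0.01 and -0.04. The gene that passed was Ambp, the precursor of the heme-binding alpha-1-microglobulin, at 2666, 3185 and 3873 FPKM in the lowest, median and highest Con mouse and 2439, 2561 and 3055 FPKM in Exe, a log2 difference of -0.24 (limma unadjusted p = 0.0339, adjusted p = 0.793). Exe 1, Exe 2, Exe 4 and Exe 6 lay below all Con mice and the other Exe mice within their range. The unadjusted p was below 0.05 in 8 of 19 alternatives. After quantile normalization the difference was -0.08 (limma unadjusted p = 0.356), with the replicate number as a block the unadjusted p was 0.052, and with Hba-a1 as a covariate it was 0.106. It lay between 0.0522 and 0.084 without Con 1, Con 2, Con 3, Con 6, Exe 1, Exe 2, Exe 4 or Exe 6. Hpx (hemopexin) and Hp (haptoglobin), which bind heme and hemoglobin in plasma, differed by -0.32 and -0.06 (adjusted p = 0.931 and 0.986). The list's median was -0.21, against 0.02 over all tested genes. How large a share of all tested genes had a lower Exe estimate was not computed.

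Of 10 tested regulators of Alas1, 0 passed at an unadjusted p. The nuclear receptors Hnf4a, Rxra and Nr1i3 averaged 156, 101 and 92.0 FPKM, with log2 differences of -0.12, -0.06 and 0.33 (limma adjusted p = 0.931, 0.931 and 0.833). Among 9 tested genes that are widely expressed but abundant in reticulocytes, 0 passed, and Ube2l6, Epb41 and Bnip3l differed by -0.05, -0.05 and -0.01. These lists carried no shift beyond 0.04 in their medians.

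Markers of other blood cells were summed per mouse beside the globins. Platelet markers ran from 10 to 13.0 FPKM in Con and from 8.80 to 14.5 in Exe, neutrophil markers from 13.2 to 35.2 and from 9.58 to 55.6, B and plasma cell markers from 3.19 to 5.83 and from 5.34 to 8.61, and T cell markers from 1.84 to 4.11 and from 2.78 to 5.28. Exe 5, the mouse with the most globin, also had the highest platelet, B cell and T cell sums, and Exe 3 the highest neutrophil sum. Most of the platelet sum of Exe 5 was a single gene, Clec1b, at 10.8 FPKM. Each of the other platelet genes was highest in another mouse, Pf4 and Ppbp for example in Con 5. Most defining markers were near 0. Of the genes in the files, 7 of 8 T cell, 8 of 11 platelet, 6 of 12 neutrophil and 3 of 6 B cell genes stayed below 1 FPKM in every mouse. The most abundant were S100a8 and S100a9 of neutrophils at means of 13.8 and 6.72 FPKM and Clec1b and Pf4 of platelets at 7.84 and 1.83. Next came Cd79a of B cells at 1.77, and Cd3g, Lck, Cd4, Retnlg, Ppbp and Cd79b averaged less than 1 FPKM. Jchain, which joins antibody chains, was the gene with an unadjusted p below 0.05 among them. It was at 0.56 to 1.47 FPKM in Con and 1.34 to 2.39 in Exe (log2 difference 0.58, limma unadjusted p = 0.000161, adjusted p = 0.519). Its unadjusted p was below 0.05 in 18 of 18 alternatives, and the lowest adjusted p among those was 0.102. At such low levels the log2(FPKM + 1) scale makes a difference too small, and the ratio of the Exe to the Con mean was 2.05. The part of residual blood in the globin levels was not tested beyond these values.

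Kupffer cells, the liver macrophages that take up old red cells, were read from 9 markers, which summed to between 222 and 375 FPKM in Con and between 169 and 348 FPKM in Exe. The 9 had lower Exe estimates, and 0 passed at an unadjusted p. The share of all tested genes with a lower Exe estimate was not computed. This direction held for 8 of 9 with Hba-a1 as a covariate, or with Con 1, Con 4, Con 5, Exe 1, Exe 2 or Exe 5 left out. The median log2 difference of the 9 was -0.18, against 0.02 over all tested genes. The median was -0.12 without Con 2, -0.09 without Exe 2, -0.29 without Exe 5 and -0.28 with Hba-a1 as a covariate. The most abundant, Cd5l, C1qa and Clec4f, differed by -0.32, -0.17 and -0.23 (limma adjusted p = 0.912, 0.932 and 0.929). Each of these was highest in Con 2 and lowest in Exe 2, so the markers are not separate observations. Among the 10 hepatocyte markers, 3 passed at an unadjusted p and 0 at an adjusted one. These were Cps1 (0.29), Alb (0.34) and Tat (-0.55). Cps1 kept an unadjusted p below 0.05 in 19 of 19 alternatives and Alb in 16, losing it after quantile normalization (0.0746), with no filter (0.140) and with Hba-a1 as a covariate (0.0783). Tat kept it in 11, losing it with that covariate (0.123) and without Con 1, Con 2, Con 3, Con 5, Exe 2, Exe 3 or Exe 5 (0.0514 to 0.0807).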

How the data were processed

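RNA-seq was performed on the livers of 12 mice, 6 per group, each with its own library. After filtering, the authors mapped the reads with HISAT (GRCm39), and the FPKM they deposited have 2 decimals. The submitters' processing notes also name Bowtie2 and mm10, with no role. The tool behind the FPKM, strand use and any scaling between mice are not given in the sources used here. Because FPKM are not counts, limma was used, as planned for that case.

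Values were put on the scale log2(FPKM + 1), on which fold changes of low genes come out too small. A limma-trend model (limma 3.58.1, R 4.3.3) was run on genes with at least 1 FPKM in at least 6 mice, with Benjamini-Hochberg adjustment. The fit and the correlations were tested on simulated data. Single genes and ratios were compared by exact two-sided permutation over 924 divisions of the mice (smallest p 0.00216), and relations over 12 mice by 100000 permutations, or within 6 mice by all 720 orders (Python 3.11.15, numpy 2.4.6, pandas 2.3.3, scipy 1.17.1, matplotlib 3.10.9). Sequences were compared with Biopython 1.88. Promoter windows came from a RefSeq table on GRCm38.p6. Fech is given by name only.

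Genes named were the 9 members, the other enzymes, the 3 genes of highest mean FPKM and any at unadjusted p of 0.05 in each list, and the 5 genes most like Hba-a1 and Alas1. Other genes, which are Isg20, Epb42, Hemgn, Ahsp, Gata1, Slc4a1, Trim10, Clpx, Hmox1, Hmox2, Nr1d2, Nrf1, Fam210b, Foxo1 and the genes overlapping members, were named after their values were seen. Some genes under the rule are not reported here. The members and lists were chosen with earlier results of these data known. The mice are taken as separate animals, as the labels have 1 library each. Same-numbered Con and Exe mice did not deviate together (r from -0.478 to 0.165), so the numbers were not taken as pairs. Whether they stand for a shared cage or batch was not tested. Alternatives were Hba-a1 as a covariate, a block for the replicate number, a pseudocount of 0.1, filters in all 12 mice or none, robust moderation, quantile normalization and leaving out each mouse.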

Additional observations from a re-analysis of the deposited data

How the results depend on the processing

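Of 653 recomputed values, 614 had the same sign and the same call, 36 changed sign, 1 lost its call and 2 counts moved. The globins, Alas2, Alad and Cpox kept their sign under every alternative run, and the lowest adjusted p of a member under any of them was 0.561. Genes with an adjusted p below 0.05 numbered 0, and 1 with no filter on low values. Genes at an unadjusted p numbered 636, from 418 without Exe 2 to 905 without Exe 5 with a mouse left out, and from 469 (Hba-a1 as a covariate) to 898 (no filter). The replicate number as a block gave 567 of these and 0 adjusted calls. The numbers were not taken to pair the mice, and 1 of 6 mice was most like its own number.

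The following signs changed. With Hba-a1 as a covariate the log2 difference was 0.0457 for Alas1 and -0.0057 for Ppox. After quantile normalization it was -0.0198 for Urod and -0.0121 for Fech, the log2 ratio differed by 0.000505 for Hba-a1 to Hbb-bs and by 0.00129 for Alas2 to Alas1, and r with Hba-a1 was -0.0229 for Fech and, within Con, -0.076 for Urod. With each mouse left out, the log2 difference ran from -0.41 to 0.0576 for Alas1, from -0.0139 to 0.0307 for Urod, from -0.0085 to 0.0641 for Fech and from -0.0065 to 0.0751 for Ppox. The log2 ratio difference ran from -0.0592 to 0.0483 for Hba-a1 to Hbb-bs and from -0.26 to 0.31 for Alas2 to Alas1. The r with Hba-a1 ran from -0.0639 to 0.200 for Alas2, from -0.367 to 0.211 for Urod, from -0.119 to 0.453 for Cpox and from -0.0573 to 0.227 for Fech. The r of Fech within Exe was -0.716 after quantile normalization (adjusted p = 0.329 over exact tests). The cause of these shifts was not tested.

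The depth in reads is unknown, so values of a few hundredths of an FPKM, such as those of Slc4a1 and Trim10, carry a counting error that cannot be given. No paired or repeat library was analysed here, so the spread between mice is the only error. With 6 mice per group and the within-group spread of the globins, the 95% interval of Hba-a1 ran from -0.02 to 1.68 on the log2 scale.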
